A study of Danio rerio with 2 samples.

Results

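The caspases examined here were found by gene name among the 26597 genes of the deposited table. The rule for members gave 8 gene rows, of which 6 are described: casp2, casp8 and casp9 of the initiator class, casp6a of the executioner class, and caspa and caspb of the inflammatory class. The names table writes some names only in capitals, so casp2, casp9 and casp6a appear as CASP2, CASP9 and CASP6. Another 8 rows carry other caspase names and are described after the members. The series holds RNA-seq of 1 zebrafish library with salvianolate treatment and 1 WT library, and the labels call the source of each cardiac tissue. Salvianolate is a mixture of polyphenolic salts obtained from the medicinal plant Salvia miltiorrhiza. Its use is recorded in the genotype field and in the title of the treated library, which calls the material embryos. Strain, stage, amount, exposure time and pooling of animals are not stated.

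Caspases are proteases that cut other proteins after aspartate. Initiator caspases are switched on in large complexes. That of caspase-8 forms at death receptors, and that of caspase-9 is the apoptosome, which forms when mitochondria release cytochrome c. The complex of caspase-2 is linked to DNA damage. Initiator caspases can cut and switch on executioner caspases, which take the cell apart. Caspase-6 is counted among the executioners. Inflammatory caspases act in inflammasomes, process interleukin-1 and cut gasdermins, which open the cell membrane. In zebrafish, caspa and caspb are inflammatory caspases that carry a pyrin domain. Caspases are made as inactive precursors, so an RNA level does not give their activity.

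The treated library held 19295524 rounded counts and the WT library 19531764. Levels are in CPM, counts scaled to library size, after scaling the libraries by the trimmed mean of M values (TMM). The levels of different caspase genes are ranked in FPKM, which is per length. Count ratios between genes, shares of counts and summed CPM are not per length. A count of 3 amounts to 0.152 CPM in the treated and 0.157 CPM in the WT library. There is 1 library per group, so no difference has a replicate check, no test between conditions was possible, and every interval (95%, exact) covers counting error only. The label of heart tissue was set against markers. The 9 rows of heart muscle markers summed to 87.7 CPM in treated and 94.0 in WT, whereas 9 rows of skeletal muscle markers summed to 33273 and 30913 CPM, 8 skin genes to 10781 and 14970 CPM, and 8 rows of cone photoreceptor genes to 789 and 157 CPM. Markers of these other tissues were thus present in both libraries, at sums above that of the heart markers. A difference may come from fewer cells of a type or from less RNA per cell, which cannot be told apart in such samples. The series' design text gives 109 genes up-regulated and 565 down-regulated with treatment. In contrast, by the 2-fold rule given below, 533 genes were higher and 143 lower in the library labelled treated. The 2 pairs of counts need not rest on the same rule. All directions here follow the library labels. Whether the labels of the libraries are exchanged was not tested, and if they were, every direction given here would turn round.

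In the treated library 2 of the 6 caspase genes were lower by more than counting error, the inflammatory caspase gene caspb and the initiator gene casp8, and the other 4, CASP2, CASP9, CASP6 and caspa, had intervals that include a ratio of 1. An interval wholly below 1 was found for 17.3% of all genes above the floor. The gene caspb had 42.1 CPM in the treated library (39.3 to 45.1) and 65.0 CPM in WT (61.4 to 68.7). The gene casp8 had 2.13 CPM in the treated library (1.53 to 2.88) and 4.55 CPM in WT (3.65 to 5.61). In neither gene did the intervals of the libraries overlap. A gene was counted as different at a fold of at least 2 with an interval that excludes a ratio of 1 and at least 1 CPM in 1 or both libraries. All 6 passed that floor in both libraries. By this rule 1 member, casp8, was lower, beside 0.721% of the 19829 genes above the floor, and 0 were higher, beside 2.69%. At a fold of 1.5 there were 2 members lower, beside 2.64% of all genes, and 0 higher, beside 6.07%. An interval wholly above 1 was found for 0 of the 6 and for 17.4% of all genes. The median log2 ratio of the 6 genes was -0.12, and that of all genes above the floor was -0.002.

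**Figure D1:**
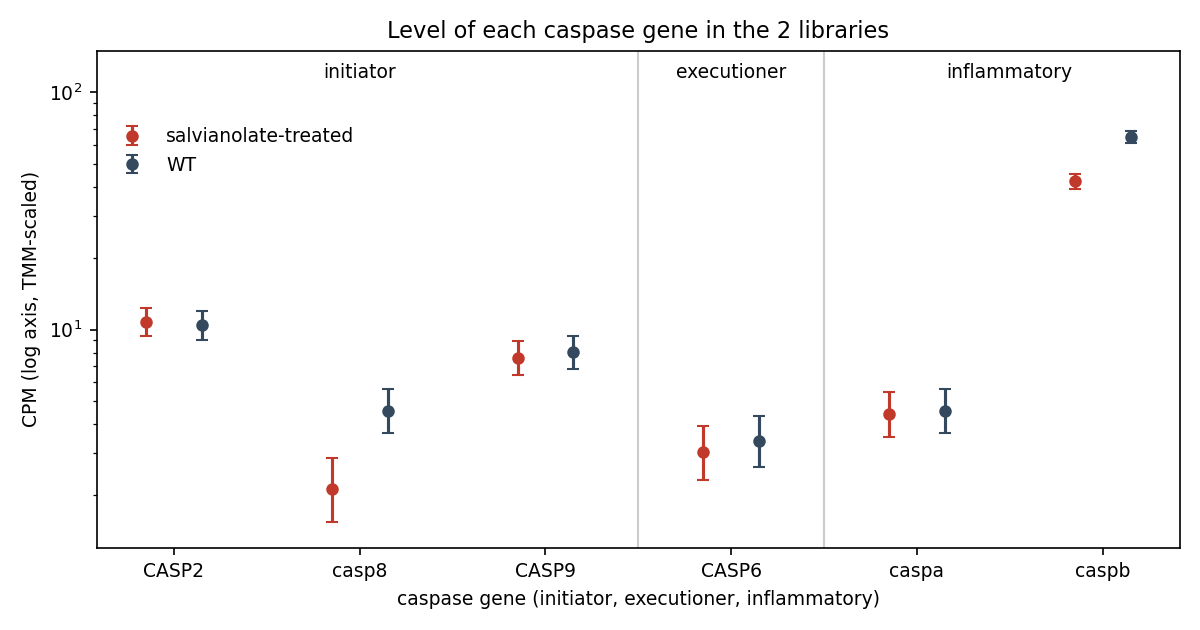
Level of each of the 6 caspase genes in the salvianolate-treated and the WT library, in TMM-scaled CPM on a log axis, grouped by class. Points are single libraries and bars are 95% Poisson intervals. The treated library is lower in casp8 (2.13 and 4.55 CPM) and in caspb (42.1 and 65.0 CPM), and the bars of the other genes overlap.

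Per length, caspb (ENSDARG00000052039) stood highest of these genes in both libraries, at 29.7 FPKM in treated and 45.0 in WT. The other members were far lower. CASP2 had 5.91 FPKM in treated and 5.36 in WT. CASP9 had 4.48 and 4.52 FPKM, and its counting interval overlapped that of CASP2 in both libraries. The gene caspa had 2.92 and 2.89 FPKM and CASP6 1.97 and 2.11 FPKM, and these 2 genes had overlapping intervals in both libraries. In the treated library casp8 stood lowest, at 1.07 FPKM (0.771 to 1.45), below CASP6 (1.503 to 2.54) by intervals that did not overlap. In WT casp8 had 2.2 FPKM (1.76 to 2.71), next to CASP6 (1.63 to 2.69), and these intervals overlapped. Across the 6 genes the highest FPKM was 27.8 times the lowest in the treated and 21.3 times in the WT library.

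Among the initiator caspases casp8 (ENSDARG00000058325), the caspase of death receptors, had 42 counts in the treated and 87 in the WT library. It was lower by 2.12-fold (1.46 to 3.17), a log2 ratio of -1.09 (-1.66 to -0.55). The lower bound of that interval is below 2-fold, so the size is loosely set at this depth. The deposited FPKM were 2.06-fold lower, but on the scale of log2(FPKM + 0.5), which shrinks ratios of low genes, the ratio was -0.78, short of a fold of 2. Among the 4855 genes of similar level, 1.5 to 6 CPM in the higher library, 1.52% were at least 2-fold lower by the same rule; this range was chosen after the value was seen. CASP2 (ENSDARG00000062052), the caspase of the damage-linked complex, had 10.8 CPM in treated and 10.5 in WT, a log2 ratio of 0.04 (-0.25 to 0.33). CASP9 (ENSDARG00000004325), the caspase of the apoptosome, had 7.61 and 8.01 CPM, a log2 ratio of -0.07 (-0.41 to 0.26). Both intervals include a ratio of 1 and leave room for differences in either direction.

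The level of casp8 was also set against single genes within each library. For each count of cflara, a relative of casp8 that blocks its activation, there were 0.494 counts of casp8 in the treated library (0.333 to 0.723) and 1.06 in WT (0.776 to 1.45). For each count of CASP9 there were 0.280 counts of casp8 in treated (0.194 to 0.397) and 0.569 in WT (0.432 to 0.745). These ratios within a library do not depend on how the libraries are scaled. They reuse the casp8 counts given above, so they are not separate support for its lower level. Against FADD, the adaptor that binds casp8 to death receptors, the ratios were 1.75 (1.04 to 3.02) in treated and 2.35 (1.58 to 3.55) in WT, and their intervals overlapped.

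The executioner gene CASP6 (ENSDARG00000093405), whose product is known for cutting nuclear lamins, had 60 counts in the treated and 65 in the WT library. Its level was 3.04 CPM in treated (2.32 to 3.92) and 3.40 in WT (2.62 to 4.33), a log2 ratio of -0.16 (-0.69 to 0.37). The intervals overlapped. CASP6 had under 100 counts in both libraries, as did casp8 and caspa, so only large differences could be seen.

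Of the inflammatory caspases, caspb had 831 counts in the treated and 1242 in the WT library, lower by 1.54-fold (1.41 to 1.69), a log2 ratio of -0.62 (-0.75 to -0.50). Of the 7959 genes that reached 20 CPM in the higher library, 1.17% were at least 1.5-fold lower; this range, too, was chosen after the value was seen. The deposited FPKM were 1.51-fold lower. Scaled by total counts instead of TMM, the log2 ratio was -0.56, short of a fold of 1.5. The gene caspa (ENSDARG00000008165) had 87 counts in each library, 4.41 CPM in treated (3.53 to 5.44) and 4.55 in WT (3.65 to 5.61), a log2 ratio of -0.05 (-0.49 to 0.40). There were 9.55 counts of caspb for each of caspa in the treated library (7.65 to 12.1) and 14.3 in WT (11.5 to 17.95). These intervals overlap, whereas those of the log2 ratios of caspb and caspa do not. Overlap of intervals is no test, and whether the 2 genes differ in their ratio was not tested.

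Markers of several cell types differed between the libraries, in both directions. Of the heart muscle rows, 8 were above the floor, with 3 intervals wholly below a ratio of 1 and 1 wholly above. The lowest of these, nppa, stood at 9.03 CPM in treated and 16.8 in WT. The row above a ratio of 1, a MYH6 row and the most abundant of the list, stood at 39.1 and 30.0 CPM. The heart name vmhc and some names of other lists were not matched. Of 8 skin genes, 6 had intervals wholly below a ratio of 1, beside 17.3% of all genes, and 0 wholly above, and krt4 stood at 4650 CPM in treated and 6570 in WT. Their summed level was 10781 CPM in treated and 14970 in WT, a log2 ratio of -0.47. Of the 8 genes of neutrophils and macrophages that were found, 7 were above the floor, with summed levels of 124 and 133 CPM; the interval of mmp13a lay above a ratio of 1 and that of CORO1A below. The neutrophil lysozyme gene lyz stood at 36.9 and 38.2 CPM. Of 6 erythrocyte gene rows, all 6 had an interval below a ratio of 1, with sums of 2975 and 4635 CPM. Other lists were higher in the treated library. Intervals lay above a ratio of 1, as they did for 17.4% of all genes, for 7 of the 7 cone photoreceptor genes above the floor, 5 of 6 exocrine pancreas genes, 8 of 9 skeletal muscle genes and 6 of 9 neuron genes. That share of all genes was not matched for depth, and at high counts an interval excludes 1 for small ratios too. The sizes differed: the median log2 ratio was 2.31 for cone, 0.18 for neuron and 0.07 for skeletal muscle genes. The skeletal muscle median is about the size of the 0.06 shift from scaling by total counts, which would raise it. Log2 ratios in that list ranged from 0.005 to 0.32. The highest was that of myhz1.1, at 4681 CPM in treated and 3745 in WT. The pancreas genes summed to 108 CPM in treated and 38.2 in WT, and the neuron genes to 1427 and 1263 CPM, with 2 neuron genes below a ratio of 1. The part of these cell types in the lower level of caspb or casp8 was not tested.

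**Figure D2:**
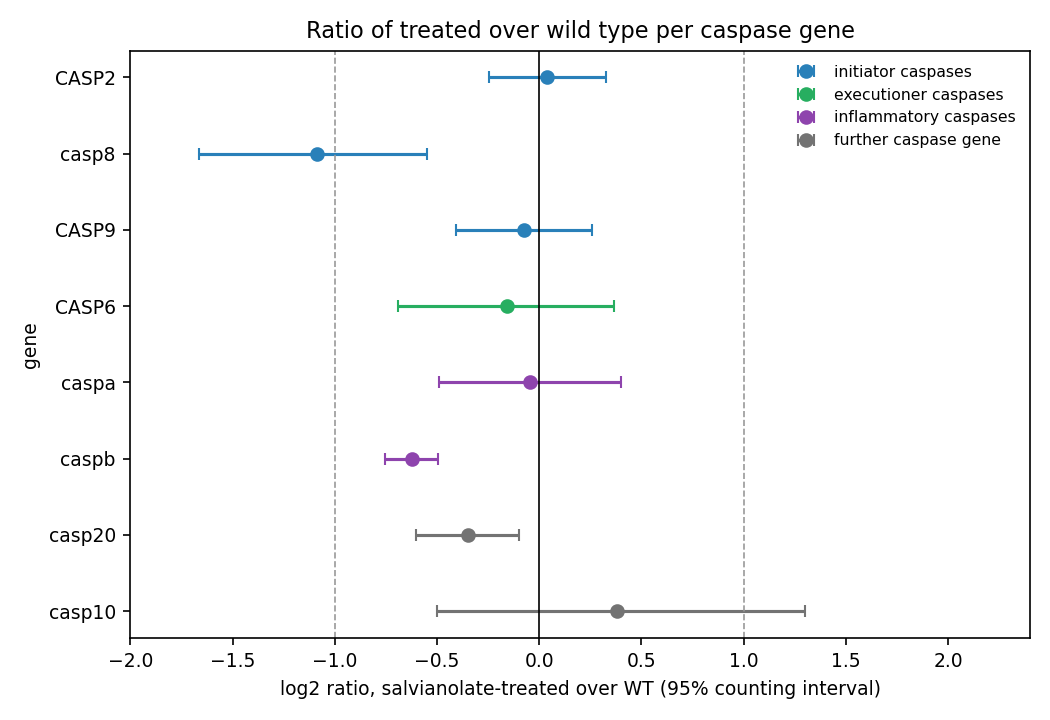
Log2 ratio of salvianolate-treated over WT for the 6 caspase genes and the 2 further caspase genes above the floor, with 95% counting intervals; dashed lines mark a fold of 2 and colours the class. The intervals of casp8 (-1.66 to -0.55), caspb (-0.75 to -0.50) and casp20 lie below 0, and the others include it.

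Summed by class, the inflammatory caspases were lower, and the interval of the initiator sum includes a ratio of 1. The 2 inflammatory genes summed to 46.6 CPM in treated (43.6 to 49.7) and 69.5 in WT (65.8 to 73.4), a log2 ratio of -0.58 (-0.70 to -0.46). The 3 initiator genes summed to 20.5 CPM in treated (18.5 to 22.6) and 23.0 in WT (20.9 to 25.3), a log2 ratio of -0.17 (-0.37 to 0.03). The difference of the inflammatory class is that of caspb, since caspa alone gave -0.05. Without CASP2 the initiator sum had a log2 ratio of -0.37 (-0.65 to -0.09). The executioner class is described by CASP6 alone.

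As shares of the counts of these 6 genes, inflammatory genes made up 66.4% in the treated library (63.9 to 68.9) and 72.5% in WT (70.4 to 74.5). Initiator genes made up 29.2% in treated (26.8 to 31.7) and 24.0% in WT (22.1 to 26.0). CASP6 made up 4.34% (3.33 to 5.55) and 3.54% (2.75 to 4.495). The shares need no scaling between libraries, and only those of CASP6 had overlapping intervals. They add up to the whole, and caspb alone made up 60.1% in treated and 67.7% in WT. A lower count of caspb thus raises the other shares, which are not separate support for a difference between classes. Inflammatory counts exceeded initiator counts 2.27 times in treated (2.02 to 2.56) and 3.02 times in WT (2.71 to 3.37). Per length these ratios were 2.85 and 3.97.

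**Figure D3:**
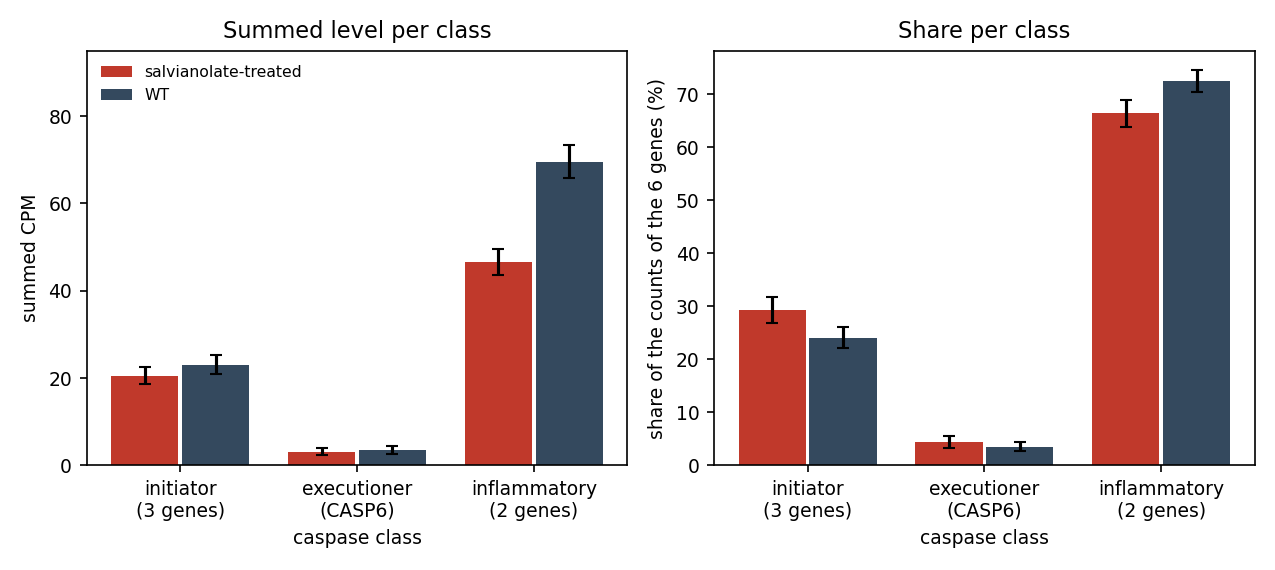
Summed CPM of the initiator caspases (3 genes), of CASP6 and of the inflammatory caspases (2 genes) in the salvianolate-treated and the WT library (left, 95% Poisson intervals), and each class as a percentage of the counts of these 6 genes (right, 95% Clopper-Pearson intervals). The inflammatory sum is 46.6 CPM in treated and 69.5 in WT, and the initiator sum is 20.5 and 23.0 CPM.

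The 6 genes together summed to 70.1 CPM in treated and 95.96 in WT, 25.9 CPM lower in the treated library. Of this difference caspb made up 88.3% and casp8 9.36%. Without caspb the other 5 genes summed to 27.9 CPM in treated and 30.97 in WT, a log2 ratio of -0.15 (-0.32 to 0.02). Without casp8 as well, the remaining 4 gave 25.8 and 26.4 CPM, a log2 ratio of -0.03 (-0.21 to 0.15). These sets were formed after the values were seen.

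**Figure D4:**
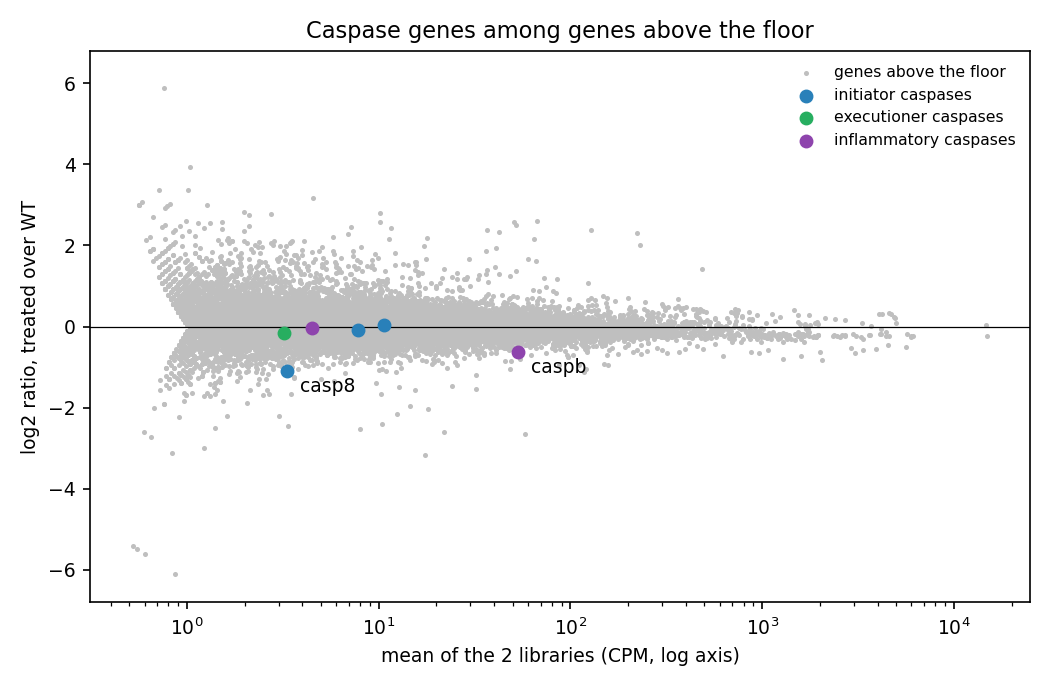
Log2 ratio of salvianolate-treated over WT against the mean CPM of both libraries (log axis) for genes above the floor (grey), with the 6 caspase genes in the colour of their class. The genes casp8 at -1.09 and caspb at -0.62 lie toward the lower side of genes of similar level, where other genes lie lower still. The other 4 lie near 0.

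Of the 8 further caspase rows, 2 were above the floor. The gene casp20 (ENSDARG00000104367) had 237 counts and 12.0 CPM in treated and 293 counts and 15.3 CPM in WT, lower by 1.28-fold (1.07 to 1.52), short of a fold of 1.5. The gene casp10, an initiator in mammals, had 27 counts in treated and 20 in WT, a log2 ratio of 0.38 (-0.50 to 1.299), with an interval that includes a ratio of 1.

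The RefSeq annotation of another assembly, GRCz12tu, was used for gene order only. There casp6a lies directly between casp6b.1 and casp6b.2, with 0 protein-coding genes in between. In these libraries casp6b.1 had 10 counts in each, and casp6b.2 had 0 counts in both. For a count of 0 the upper bound of the interval stands at 0.187 CPM in treated and 0.193 in WT. The gene caspbl lies near caspb, with 2 protein-coding genes in between, and had 2 counts in treated and 1 in WT, against 831 and 1242 for caspb. The genes casp8, casp8l1 and casp20 follow each other with 1 protein-coding gene between neighbours. No row of these libraries bears the name casp8l1, so its level is not given. For each count of casp8 there were 5.64 of casp20 in treated (4.05 to 8.03) and 3.37 in WT (2.64 to 4.33). These intervals overlapped, and the ratio reuses the casp8 counts given above. The remaining rows, casp21, casp22 and casp23, had 1, 3 and 1 counts in treated and 2, 7 and 4 in WT.

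The genes that act with the caspases were taken from 9 lists written for this comparison with earlier results of these data known, and 71 of them were above the floor. At a fold of 2 there were 0 higher, beside 2.69% of all genes, and 0 lower, beside 0.721%. At a fold of 1.5 there were 2 higher, beside 6.07%, and 0 lower, beside 2.64%. The interval lay above a ratio of 1 for 7, beside 17.4% of all genes, and below it for 14, beside 17.3%, and it included 1 for 50. The median log2 ratio of the 71 genes was -0.05, beside -0.002 for all genes. The counts of single lists are given as a description, to be read against the same shares.

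Around casp8, the death receptor list had 15 of 20 gene rows above the floor and a median log2 ratio of -0.05, with 2 intervals above a ratio of 1, beside 17.4% of all genes, and 3 below, beside 17.3%. FADD had the lowest ratio, from 1.22 CPM in treated and 1.94 in WT, with an interval that includes 1 (log2 -1.47 to 0.11). The TNF receptor adaptor gene tradd had the highest, at 9.58 and 7.64 CPM, with a log2 ratio of 0.33 (0.01 to 0.65). The TNF receptor genes tnfrsf1a and tnfrsf1b were lower: tnfrsf1a had 9.18 CPM in treated and 12.1 in WT, and tnfrsf1b 5.48 and 8.01 CPM, with a log2 ratio of -0.55 (-0.92 to -0.18). The kinase gene ripk1l, which acts beside casp8 at these receptors, had 5.73 and 7.64 CPM, with a log2 ratio of -0.41 (-0.78 to -0.05). The receptor gene TNFRSF21, at 20.4 and 16.5 CPM, was higher. These 4 genes were named after their values were seen. The receptor gene tnfrsfa, the highest of the list in FPKM, had 21.0 and 19.8 CPM. The ligand genes faslg and tnfa had 0 counts in both libraries.

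Around CASP9, the list of mitochondrial release and apoptosome genes had 10 of 20 gene rows above the floor, a median log2 ratio of -0.07 and 1 interval on each side of 1. Of the 20 rows, 13 carry the same name, HTRA2, so the list holds fewer distinct genes than rows. Some HTRA2 rows are among the 10 and enter the median. The apoptosome scaffold gene APAF1 had 29.1 CPM in treated and 29.7 in WT, and the cytochrome c gene cycsb 208 and 199 CPM. The gene diabloa, whose product relieves the block that IAP proteins put on caspases, was the lowest of the list at 19.8 and 25.7 CPM, with a log2 ratio of -0.38 (-0.57 to -0.18). Its relative diablob had 21.2 and 23.5 CPM, with an interval that includes 1. Among death-promoting members of the BCL2 family, which open the mitochondrial membrane or help to, 10 genes were above the floor and had a median of 0.03. Of these, bmf2 was at least 1.5-fold higher, with 51 counts and 2.59 CPM in treated and 25 counts and 1.31 CPM in WT, a log2 ratio of 0.97 (0.27 to 1.74). The more abundant BAX had 575 counts in each library, 29.2 and 30.1 CPM. Among the 6 survival genes, with a median of -0.015, a BCL2 gene (ENSDARG00000089109) was higher, at 4.72 CPM in treated and 2.83 in WT, a log2 ratio of 0.73 (0.24 to 1.25). In the same list bcl2a, at 7.71 and 9.99 CPM, and mcl1b, at 33.3 and 41.6 CPM, were lower, so that list holds genes of both directions.

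The inhibitors of apoptosis, which bind caspases or mark them for destruction, had 5 genes above the floor and a median of -0.12, with 1 interval above a ratio of 1 (17.4% of all genes) and 2 below (17.3%). BIRC5, better known for its part in cell division, had 10.5 CPM in treated and 13.5 in WT, BIRC7 10.2 and 8.16 CPM, and BIRC2, the highest in FPKM, 82.0 and 89.3 CPM. The inhibitor gene xiap had 16.5 and 17.95 CPM, with an interval that includes a ratio of 1. For CASP2, the scaffold gene pidd1 had 4.31 and 5.18 CPM and the adaptor gene CRADD 1.06 and 1.099 CPM, both with intervals that include 1.

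Around caspa and caspb, 4 inflammasome and pyroptosis genes were above the floor, with a median of -0.29 and 1 interval below a ratio of 1. That was the interval of pycard, the inflammasome adaptor, which stood at 22.5 CPM in treated and 26.4 in WT, a log2 ratio of -0.23 (-0.42 to -0.05). There were 1.88 counts of caspb for each of pycard in treated (1.67 to 2.11) and 2.46 in WT (2.22 to 2.73), so caspb was lower relative to pycard too. That ratio reuses the same caspb counts and is not separate support. The gasdermin genes, whose products open the cell membrane once cut, had intervals that include 1: gsdmea with 70 counts in treated and 86 in WT, and GSDME at 7.20 CPM in treated and 7.38 in WT. The sensor gene nlrp1 had the lowest ratio of the list, from 15 counts in treated and 22 in WT, with an interval that includes 1 (log2 -1.65 to 0.41), and its deposited FPKM ran the other way, at 2.62 in treated and 2.41 in WT. The genes nlrp3, with 6 counts in each library, and il1b, with 6 in treated and 9 in WT, were under the floor.

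Downstream of the executioners, 10 genes of caspase substrates and DNA cutting had a median of -0.03, with 0 intervals above a ratio of 1 (17.4% of all genes) and 2 below (17.3%). The gene LMNB1 of a nuclear lamin had 222.5 CPM in treated and 263.8 in WT, a log2 ratio of -0.25 (-0.30 to -0.19). The caspase-activated nuclease gene DFFB and its inhibitor gene DFFA had intervals that include 1; DFFB stood at 4.41 CPM in treated and 4.03 in WT, and DFFA at 5.73 and 6.85 CPM. Of the p53 list, which answers DNA damage, 1 of 9 genes had its interval above a ratio of 1 (17.4% of all genes) and 3 below (17.3%). The p53 inhibitor gene mdm2 was lowest, at 24.8 and 30.1 CPM, the cell cycle inhibitor gene cdkn1a highest, at 1.52 and 1.15 CPM with an interval that includes 1, and CCNG1 most abundant, at 357 and 426 CPM.

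**Figure D5:**
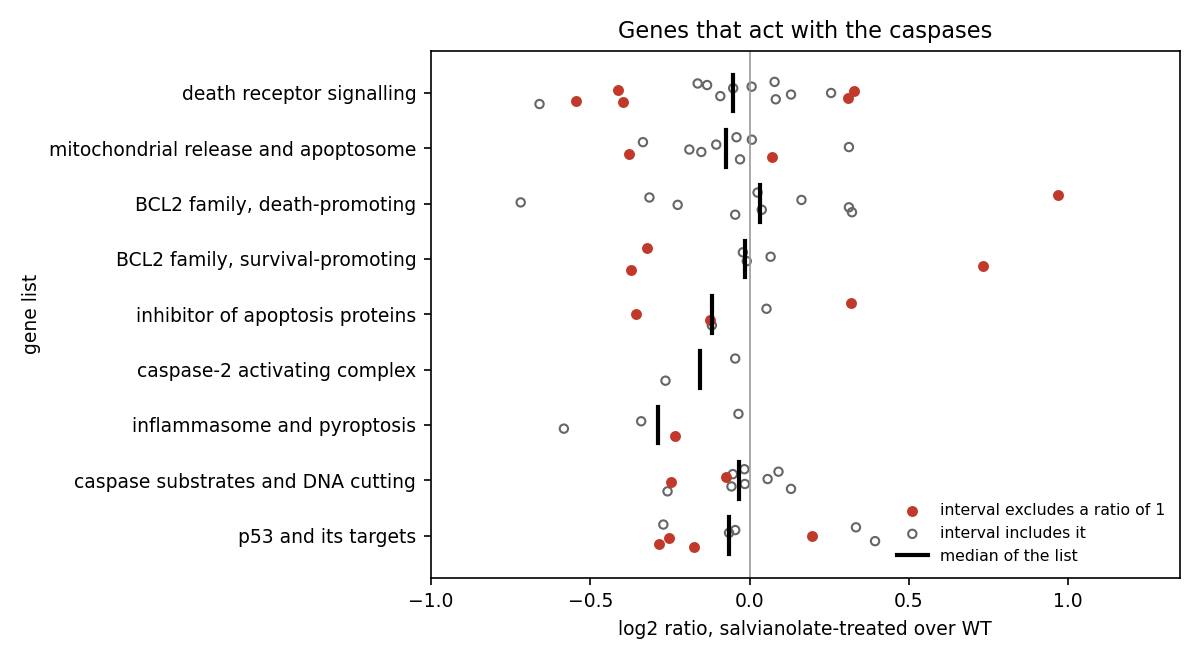
Log2 ratio of salvianolate-treated over WT for the 71 genes above the floor in 9 lists of genes that act with the caspases. Each point is 1 gene, filled where its 95% counting interval excludes a ratio of 1, and black bars are list medians. The points farthest to the right are bmf2 at 0.97 and a BCL2 gene at 0.73.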

How the data were processed

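RNA-seq of 1 salvianolate-treated and 1 WT zebrafish library was used, with groups from the labels. Per the file headers, the authors deposited 1 table with estimated counts (expected counts) and FPKM of both libraries. The estimated counts are not normalised, and 10.4% of the treated and 10.3% of the WT values are not whole. The file of each library repeats those counts for all 26597 genes. The submitters' processing notes name the build danRer11 and the tools HISAT2, StringTie 1.3.1, fastp 0.18.0, Bowtie2 2.2.8, edgeR and DESeq2; what each tool did and with which annotation is not stated there. Reads of similar gene copies may be split between them.

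Counts were rounded and scaled by TMM (edgeR 4.0.16, R 4.3.3; factors of 1.02 for treated and 0.979 for WT). The log2 ratio used 0.5 added counts, except for sums over genes. Intervals are exact: Clopper-Pearson for ratios and shares, Poisson for CPM, scaled to FPKM for single genes. Genes entered at 1 CPM in 1 or both libraries. The ratio and its interval were tried on simulated libraries with counting error alone, which is the error the interval assumes. That check therefore says nothing of variation between animals. Its planted differences were larger than those of casp8 and caspb and lay in genes of at least 20 CPM. Other software was Python 3.11.15 with scipy 1.17.1, pandas 2.3.3, matplotlib 3.10.9 and numpy 2.4.6.

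Names came from a table of IDs and symbols that named 23499 of the genes, matched ignoring case; a name in capitals without copy letter stood for all its IDs. Of 80 pathway names, 76 were matched. Some members and some further caspases are not reported here, and class sums and shares leave them out; all others are named; in pathway lists, members at least 1.5-fold different are named, or else the highest, lowest and most abundant, plus some chosen after their values were seen. Members and lists were chosen with earlier results of these data known. Alternatives were other scalings (total counts, DESeq2 1.42.0 median-of-ratios, upper quartile), 2 added counts, FPKM with a pseudocount of 0.5, other floors and folds, no interval, and other class memberships. No genome, promoter or protein sequence was used.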

Additional observations from a re-analysis of the deposited data

How the results depend on the processing

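No paired analysis was possible because treated and WT are 1 library each. The log2 ratios of 10 single genes (6 members, casp10, casp20, bmf2 and a BCL2 gene) were recomputed with 3 other scalings, 2 added counts and FPKM. All 50 values stayed inside the main counting interval and 0 changed the sign of a gene whose interval excludes a ratio of 1. The 3 scalings shift every log2 ratio by about 0.06 or less. That is less than the distance to the ends of each interval, for these genes and for the class sums. Values from the scalings could therefore not leave the intervals. Total counts raise every log2 ratio by 0.06, which puts caspb at -0.56, short of a fold of 1.5, and casp8 at -1.02. With FPKM and the pseudocount casp8 had -0.78, so the number of members at least 2-fold lower was 0; it was also 0 with a floor of 5 CPM and 2 at a fold of 1.5. The class sums stayed inside their intervals under every scaling and FPKM, and CASP6 also with casp6b.1 and casp6b.2 added. No other named row shared a number with a member of the other classes, and casp8l1 had no row of that name. The genes casp10 and caspbl were not added. Without its most abundant gene, the log2 ratio was -0.37 for the initiator and -0.045 for the inflammatory class; the executioner class has 1 described gene and no such value. Over all genes, 533 higher and 143 lower genes became 312 and 54 with FPKM, 181 and 33 with a floor of 5 CPM, 1204 and 523 at a fold of 1.5, and 686 and 235 without a floor. Fewer genes enter with a higher floor and more with a smaller fold, by construction. Depth limits casp8, caspa and CASP6, each with under 100 counts per library.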
